A study of Mus musculus with 9 samples.

Results

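The comparison set F9 cells given retinoic acid (RA) directly against F9 cells given trichostatin A (TSA). F9 is a mouse embryonal carcinoma line that resembles early embryo cells and turns towards primitive endoderm when treated with RA. The 3 RA arrays (0.5 uM) and the 3 TSA arrays (0.07 uM) were compared, 6 of the 9 arrays of the series. The other 3 arrays held cells given vehicle (ethanol in DMEM). All cultures were harvested after 24 h, so each drug was seen at 1 dose and 1 time, and the doses differ. All 12422 probe sets other than the 66 Affymetrix control probe sets were compared, of 12488 in the table, and 10833 of them carried 1 gene symbol and gave 8251 genes. Each value is a ratio to the vehicle arrays, whose mean is 1 for every probe set, so a value of 2 means double the vehicle mean. Levels of different genes cannot be set against each other on this scale, and whether a marker was present at all cannot be read from it. A difference is given as RA minus TSA on the scale log2(ratio + 0.05), where vehicle cancels, and understates the change of genes with ratios near 0. Where a sentence lists 3 ratios, they are arrays 1, 2 and 3 of that drug. Whether replicate numbers pair arrays of different drugs is not known. The sources do not say that the 3 arrays of a drug came from separate cultures, so p-values measure the spread between arrays, which may be technical. That spread was pooled over all 9 arrays. The vehicle arrays, which varied most (median SD 0.413, against 0.311 for RA and 0.260 for TSA), thus enter every p-value although vehicle cancels in the difference. F9 cells are a bulk culture, so fewer cells expressing a gene and less RNA per cell cannot be told apart.

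RA enters the cell and binds the retinoic acid receptors, which sit on DNA with retinoid X receptors at paired half-sites; the ligand turns a repressing complex into an activating one. Those repressing complexes contain histone deacetylases, the enzymes that TSA blocks. TSA thus acts on chromatin at large, while RA acts at the genes its receptors bind and at what lies downstream of them. In embryonal carcinoma cells RA is known for turning on enzymes that destroy RA, the 3' Hox genes and endoderm regulators, and TSA is known for raising CDK inhibitors and silent genes of many tissues.

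The drugs separated 412 of 8251 genes at an adjusted p under 0.05 in limma. RA was higher at 182 genes (2.21% of all genes) and TSA at 230 (2.79%). At the probe set level 486 of 12422 passed (3.91%), 211 higher with RA and 275 higher with TSA. The RA and TSA arrays did not overlap at any of the 412 genes, which the choice by the same difference nearly fixes; over all genes 2401 did not overlap (29.1%). The median size of the TSA-higher differences was 1.73 on the log2 scale, against 1.22 for RA-higher ones, and 87 of 230 against 33 of 182 exceeded 4-fold. Over all genes the median difference was 0.03. At an unadjusted p under 0.05, 783 genes were higher with RA and 819 with TSA, the background for the unadjusted counts given beside lists with 0 calls.

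The position of each set against vehicle is given as counts, and a difference between the sets was not tested. Against vehicle, RA raised 98 genes (1.19%) and lowered 52 (0.63%), and TSA raised 224 (2.71%) and lowered 147 (1.78%); both contrasts share the 3 vehicle arrays. Of the 230 TSA-higher genes, 116 were also above vehicle with TSA by the test and 24 were below vehicle with RA. Of the 182 RA-higher genes, 45 were above vehicle with RA, but 53 were below vehicle with TSA. Whether 53 and 45 differ was not tested. Over all genes the median log2 difference from vehicle was -0.12 with RA and -0.15 with TSA, both below vehicle. For 85 RA-higher and 91 TSA-higher genes neither drug passed the test against vehicle. By the sign of the mean alone, 126 of 182 RA-higher genes had RA above and TSA below vehicle, 21 had both above and 35 both below. Among TSA-higher genes, 165 of 230 had TSA above and RA below, 49 both above and 16 both below.

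**Figure D1:**
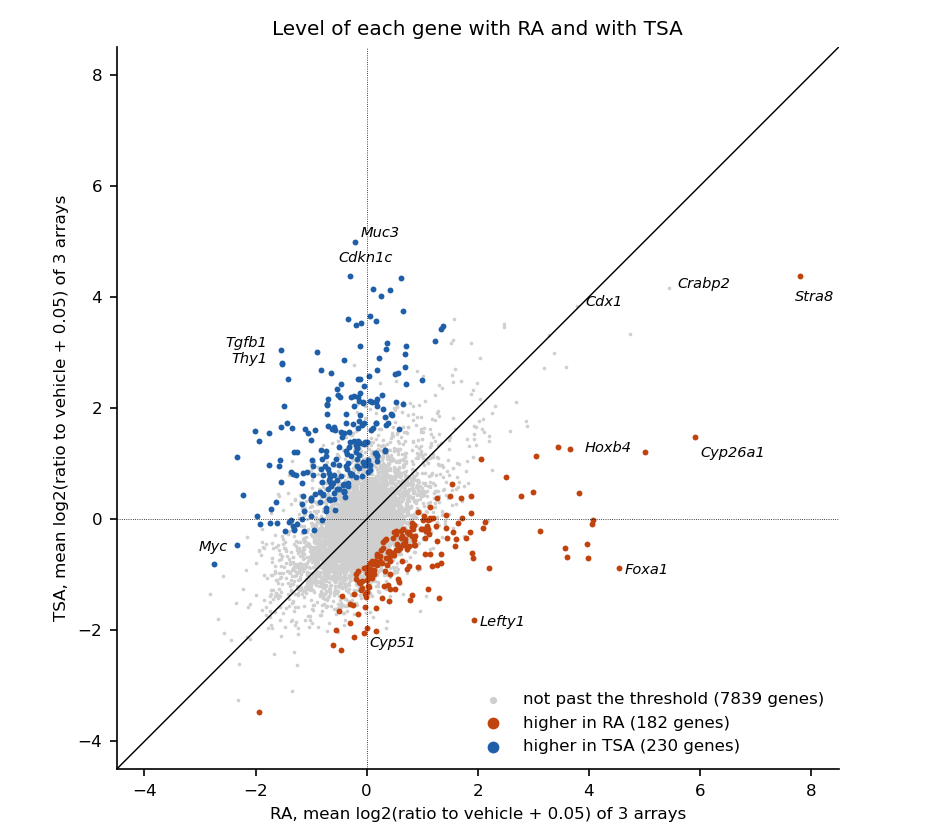
Each point is 1 of 8251 genes, placed by its mean log2(ratio to vehicle + 0.05) over the 3 RA arrays (x axis) and the 3 TSA arrays (y axis); orange marks the 182 genes higher with RA and blue the 230 higher with TSA. Some orange points lie far to the right of 0 and others at or near 0 for RA but below 0 for TSA, while most blue points lie above 0 for TSA. Crabp2 and Cdx1 lie high for both drugs.

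The number of calls rests on having 3 arrays of each drug. Leaving out TSA array 2 left 155 genes, TSA array 1 196, TSA array 3 205, RA array 2 201, RA array 1 211 and RA array 3 258. Leaving out a vehicle array gave 471, 308 and 545 genes for arrays 1, 2 and 3. The genes called in every fit with 1 array left out numbered 136, of which 50 were higher with RA and 86 with TSA. Quantile normalisation left 158 genes, all among the 412. Of 79 called genes with several probe sets, 14 passed on every probe set, 52 on some and 13 on none. Probe set differences are printed below for some genes only. Among genes below without them, Eln and Dsc2 passed on none, and Plod3 and Lama5 on 1 each. For a gene whose call ends when an array is left out, the brackets give, after the log2 difference and its adjusted p, the highest adjusted p and each such array ("up to 0.0501 without TSA 1"), and the value after quantile normalisation where that is higher still. Of 159 genes past the threshold that were drawn or chosen for naming, not all of them printed, 80 passed in every such fit and 78 after quantile normalisation.

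The largest RA-higher difference was at Foxa1, a forkhead pioneer factor of endoderm. Its ratios were 22, 24.4 and 23.5 with RA and 1.01, 0.272 and 0.421 with TSA, a log2 difference of 5.42 (95% interval 4.15 to 6.69, adjusted p 0.00165). The RA arrays lay close together and far above both other groups. Foxq1, another forkhead gene, read 11.1, 20.1 and 17.9 with RA and 0.45, 0.543 and 0.724 with TSA (log2 difference 4.7, adjusted p 0.000139). Zfp703, a zinc finger repressor, read 17.3, 16.7 and 15.9 against 0.563, 0.884 and 1.43 (log2 difference 4.14, adjusted p 0.00036). For both genes the TSA arrays scattered around or below vehicle. Srgn, the core protein of serglycin proteoglycan, read 12.9, 11.8 and 10.9 against 0.683, 0.426 and 0.907 (log2 difference 4.1, adjusted p 0.00036). Crygc, a lens crystallin, read 27.8, 14.4 and 11.9 against 0.89, 0.778 and 1.22 (log2 difference 4.08, adjusted p 0.000468), with RA array 1 the highest. Serpinf1, a secreted serpin, read 1.77, 1.9 and 4.24 against 0.254, 0.332 and 0.395 (log2 difference 2.73, adjusted p 0.0223, up to 0.0829 without RA 1/2/3, TSA 1/2/3, 0.0847 after quantile normalisation), and its probe sets differed, at 4.89 and 0.58.

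On the TSA side the largest difference was at Muc3, an intestinal mucin, with ratios of 0.595, 0.758 and 1.2 with RA and 18.6, 62.8 and 27.2 with TSA (log2 difference -5.19, 95% interval -6.29 to -4.1, adjusted p 0.000906). TSA array 2 was the highest, and the RA arrays stayed near vehicle. S100a6, a calcium-binding protein, read 1.01, 1.16 and 0.923 against 15.1, 25.2 and 14.2 (log2 difference -4.03, adjusted p 0.00036). Rab3b, a small GTPase of secretory vesicles, read 0.975, 1.88 and 1.76 against 18, 31.5 and 14.6 (log2 difference -3.73, adjusted p 0.000781). Stag3, the meiotic cohesin subunit, read 0.989, 0.929 and 1.62 against 14.6, 18.9 and 15.3 (log2 difference -3.76, adjusted p 0.00036). At these genes the RA arrays read between 0.595 and 1.88 and the TSA arrays 14.2 or more, so most of the difference lay in TSA. Others were also below 1 with RA. Thy1, a surface glycoprotein of neurons and T cells, read 0.172, 0.627 and 0.226 against 6.23, 8.26 and 6.68 (log2 difference -4.35, adjusted p 0.00346, 0.0562 after quantile normalisation). Alox15, a lipoxygenase, read 0.273, 0.323 and 0.388 against 4.89, 7.06 and 5.39 (log2 difference -3.94, adjusted p 0.00036). Slc4a5, a bicarbonate transporter, read 0.108, 0.163 and 0.403 against 3.33, 3.67 and 2.13 (log2 difference -3.6, adjusted p 0.00677, 0.0912 after quantile normalisation). Both drugs' arrays at these genes lay on opposite sides of 1. Gngt2, a G protein subunit of cone cells, read 0.486, 0.422 and 0.558 against 5.19, 10.8 and 9.21 (log2 difference -3.91, adjusted p 0.0057, 0.17 after quantile normalisation). Coch, a secreted inner ear protein, read 0.611, 0.0443 and 0.624 against 6.74, 8.54 and 5.66 (log2 difference -4.32, adjusted p 0.0107, up to 0.0521 without TSA 2, 0.0608 after quantile normalisation), and its RA array 2 was far below the other RA arrays. Calls at Gstk1, a glutathione transferase (-3.68, adjusted p 0.025, up to 0.101 without RA 1/2, TSA 1/2/3), and Mlf1 (-3.64, adjusted p 0.0211, up to 0.0872 without RA 1/3, TSA 1/2/3, 0.356 after quantile normalisation) rested on more of the arrays.

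**Figure D2:**
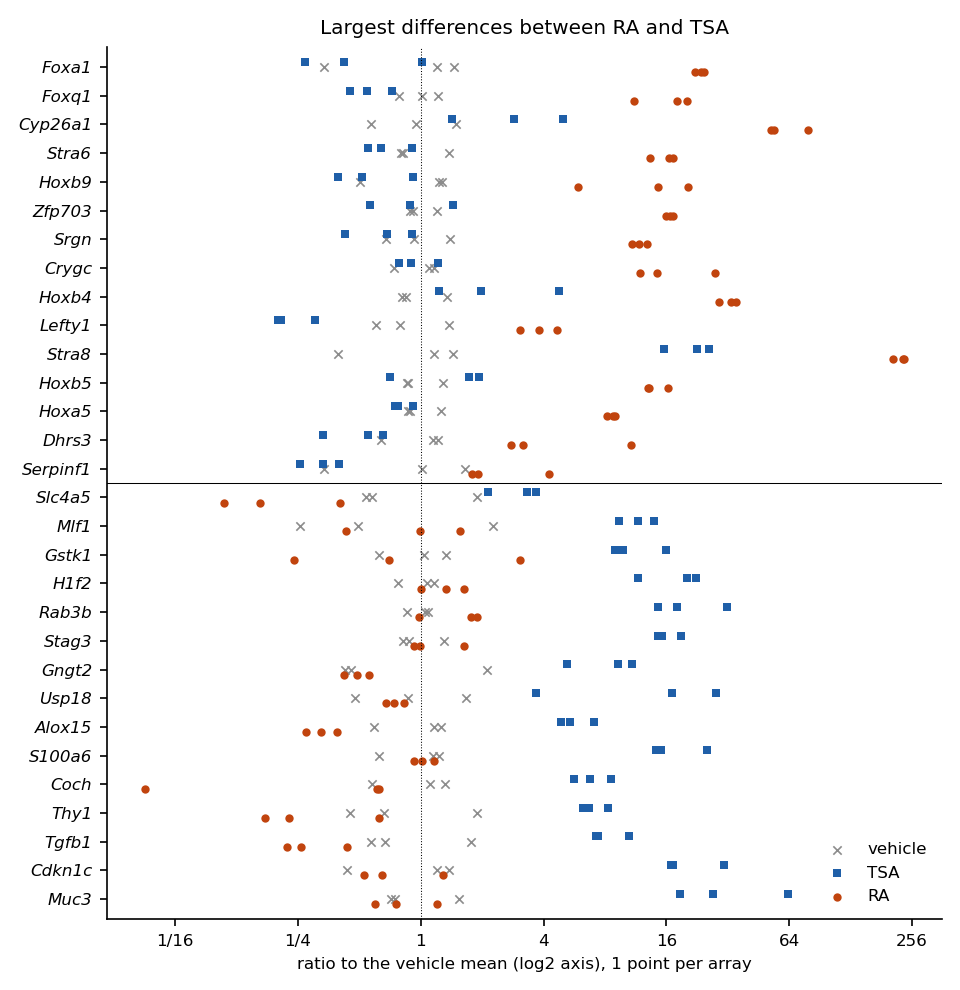
Ratio to the vehicle mean on a log2 axis, 1 point per array, for the 15 genes with the largest RA-higher differences (above the line) and the 15 with the largest TSA-higher differences (below it). RA and TSA points do not overlap at any of the 30 genes, and TSA raised Stra8 as well, to between 15.5 and 25.7.

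Of 30 measured genes of retinoid metabolism and known RA targets, 9 were higher with RA (30% against 2.21% of all genes) and 1 with TSA. Like every list below, this list was written with earlier results of these data known. The shares of the lists are therefore descriptions, not independent evidence. Leaving out 1 array gave 6 to 9 RA-higher genes, the fewest without TSA array 1. The median difference of the list was 0.36. Cyp26a1, which oxidises and clears RA, read 78.8, 53.9 and 51.8 with RA and 2.86, 4.99 and 1.42 with TSA, a log2 difference of 4.44 (95% interval 3.37 to 5.51, adjusted p 0.00172). The TSA arrays were all above the vehicle mean, but the test of TSA against vehicle was not passed (log2 difference 1.5, adjusted p 0.11). Stra6, the cell-surface receptor for retinol-binding protein, read 17.3, 16.4 and 13.3 against 0.549, 0.641 and 0.905 (log2 difference 4.41, adjusted p 0.000139). Dhrs3, which reduces retinal back to retinol, read 3.16, 2.76 and 10.7 against 0.332, 0.656 and 0.551 (log2 difference 3.08, adjusted p 0.0121, up to 0.0501 without TSA 1). Stra6 and Dhrs3 were below 1 on every TSA array. Stra8, a gene of meiotic entry, was high with both drugs: 234, 207 and 232 with RA and 15.5, 25.7 and 22.5 with TSA (log2 difference 3.43, adjusted p 0.00327, 0.0872 after quantile normalisation and 0.522 with a variance trend). Nrip1, a ligand-dependent corepressor of nuclear receptors, read 5.4, 3.1 and 2.8 against 1.27, 1.55 and 1.08 (log2 difference 1.46, adjusted p 0.0204, up to 0.0771 without RA 2, TSA 1/2/3). The exception was Aldh1a2, which makes RA from retinal, with 0.757, 0.853 and 0.941 for RA and 3.65, 2.44 and 3.2 for TSA (log2 difference -1.79, adjusted p 0.0102, 0.0511 after quantile normalisation). Crabp2, which carries RA to the nucleus, read 61.2, 40.7 and 32.4 against 14.6, 28.9 and 13.3 and did not pass (log2 difference 1.28, adjusted p 0.0767). Both drugs thus gave high Crabp2 ratios, with array ranges that did not overlap.

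The promoter of Cyp26a1 is shown because it was the only promoter among the 137 RA-higher genes with a RefSeq window that held a DR5, the binding layout of the RA receptor. A DR5 is here a pair of half-sites in the same direction with 5 bases between, searched on both strands, and a half-site is A or G, then G, then G or T, then TCA. Of 6576 measured genes with a window from 250 bases before to 50 after the start, 2 held one (0.0304%), against 1 of 137 RA-higher genes (0.73%) and 0 of 175 TSA-higher genes. The pair with 2 bases between (DR2) was found at 4 of the 6576 genes (0.0608%), 0 of them RA-higher and 2 of them TSA-higher (1.14% of 175). A gene counts once where it has several windows. A match is a description of letters, not a measured site. The stretch below lies at chr19:37697658-37697807 (GRCm38.p6, plus strand, RefSeq), directly upstream of the start; capitals mark the DR5, which lies on the opposite strand, from base -32 to -16.
Cyp26a1: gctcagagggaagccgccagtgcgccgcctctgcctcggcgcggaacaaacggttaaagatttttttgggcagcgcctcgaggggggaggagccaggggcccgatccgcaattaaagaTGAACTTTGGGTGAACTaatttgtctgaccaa

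Measured Hox genes, the homeobox regulators of position along the body axis, numbered 31. RA was higher at 10 of them (32.3% against 2.21% of all genes) and TSA at 0; the median difference was 0.97, and 28 of 31 differences were positive. Leaving out 1 array gave 7 to 11, the fewest without TSA array 1 or TSA array 2. By cluster, 6 of 9 Hoxb and 4 of 10 Hoxa genes were higher with RA, with medians of 2.08 and 1.27, against 0 of 5 Hoxc genes (median 0.88) and 0 of 7 Hoxd genes (median 0.32). At an unadjusted p under 0.05 in limma, 19 Hox genes were higher with RA and 0 with TSA, among them 4 Hoxc and 2 Hoxd genes. Whether the clusters differ from each other was not tested.

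Within Hoxb, Hoxb4 had the highest RA ratios, 33.2, 29 and 35.2, against 1.22, 4.76 and 1.97 with TSA (log2 difference 3.81, adjusted p 0.00261). Hoxb1, the most 3' gene of the cluster, read 11.2, 12.4 and 14.4 against 2.03, 2.47 and 2.55 (log2 difference 2.41, adjusted p 0.00346), so its TSA arrays also lay above 1. Hoxb5 read 16.4, 13 and 13.2 against 1.72, 1.93 and 0.707 (log2 difference 3.35, adjusted p 0.00181). These 3' and central genes of the cluster kept the groups far apart. Hoxb6 read 3.77, 3.33 and 3.63 against 0.814, 0.68 and 0.941 (log2 difference 2.08, adjusted p 0.00935). Hoxb9, towards the 5' end, read 20.5, 14.5 and 5.87 against 0.916, 0.393 and 0.517 (log2 difference 4.28, adjusted p 0.00327), with RA array 3 the lowest. The pattern was not uniform along the cluster: Hoxb8 (log2 difference -0.08, adjusted p 0.927) and Hoxb3 (0.77, adjusted p 0.145) did not pass, and Hoxb7 passed with a smaller difference (0.97, adjusted p 0.025, up to 0.092 without RA 1/2/3, TSA 1/2/3). In Hoxa, Hoxa5 was the most even, with 8.74, 8.97 and 8.19 for RA and 0.771, 0.744 and 0.919 for TSA (log2 difference 3.34, adjusted p 0.000139). Hoxa3 read 8.01, 6.6 and 5.94 against 1.07, 1.09 and 1.8 (log2 difference 2.36, adjusted p 0.0166, up to 0.0752 without RA 1/2, TSA 1/2, 0.203 after quantile normalisation). Hoxa7 read 7.11, 2.36 and 2.87 against 0.931, 1.01 and 1.14 (log2 difference 1.78, adjusted p 0.027, up to 0.0955 without TSA 1/2/3), highest on RA array 1. Hoxa4 passed as a mean of 4 probe sets (1.66, adjusted p 0.00401) whose own differences were 3.29, 2.77, 0.50 and 0.09. Hoxa2 (1.18, adjusted p 0.0531) and Hoxa9 (0.53, adjusted p 0.484) did not pass. Hoxa3, Hoxa7, Hoxa9, Hoxb6, Hoxb7 and Hoxb8 were added here after their values were seen.

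**Figure D3:**
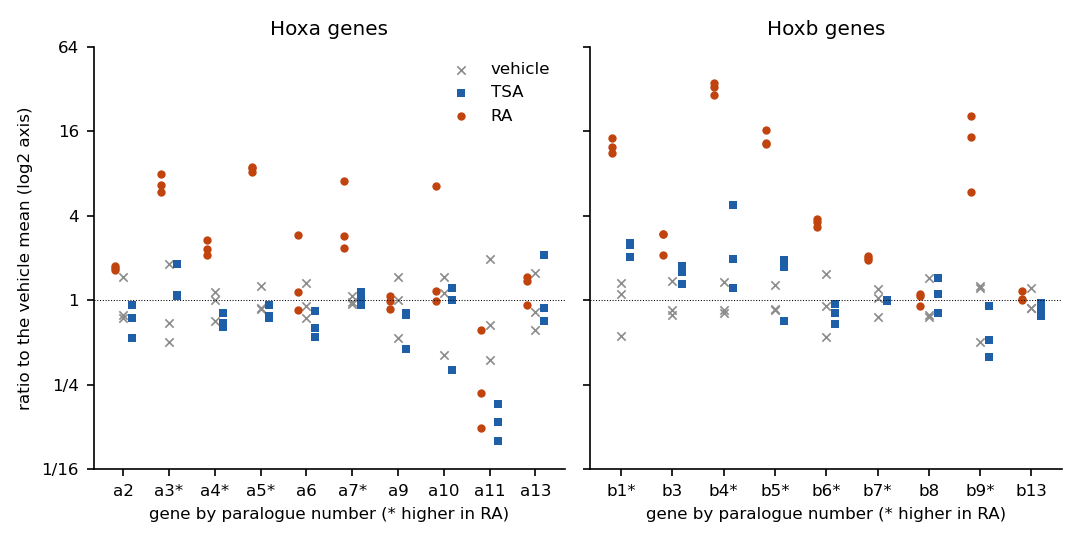
Ratio to the vehicle mean on a log2 axis for each measured Hoxa gene (left) and Hoxb gene (right), ordered by paralogue number, 1 point per array. Asterisks mark the 10 genes higher with RA; TSA arrays of Hoxb1 (2.03 to 2.55) and Hoxb4 (1.22 to 4.76) lie above 1, and those of Hoxa5 (0.744 to 0.919) lie below it.

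Among 13 Hox cofactors and caudal factors, 2 were higher with RA (15.4% against 2.21%). Meis2, a homeobox partner of Hox proteins, read 1.96, 2.53 and 1.91 against 0.667, 0.879 and 0.82 (log2 difference 1.38, adjusted p 0.00905). Pbx2 passed by a narrow margin (0.80, adjusted p 0.0473, up to 0.158 without RA 1/2/3, TSA 1/2/3, vehicle 1/2, 0.198 after quantile normalisation). Meis1 read 12.7, 11.7 and 8.1 against 3.25, 4.74 and 0.942 and missed the threshold (log2 difference 2.1, adjusted p 0.0536). Cdx1, a caudal gene that acts upstream of Hox genes, was high with both drugs: 12.2, 13.6 and 15.6 with RA and 9.95, 19.5 and 15.1 with TSA. Its difference was -0.06, with a 95% interval of -0.93 to 0.81, and the arrays overlapped.

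Endoderm regulators separated only in part. Of 33 measured genes of primitive and visceral endoderm, 3 were higher with RA (9.09%) and 0 with TSA; the median was 0.13, and leaving out 1 array gave 3 or 4. Besides Foxa1 these were Gata6 and Sox7. Gata6, the factor that commits cells to primitive endoderm, read 3.63, 4.48 and 3.19 with RA and 0.633, 0.373 and 0.763 with TSA (log2 difference 2.62, adjusted p 0.00327), with probe sets at 4.37, 2.36 and 1.12. Sox7, an early partner of it in the same lineage, read 2.41, 2.55 and 2.09 against 0.576, 0.435 and 0.547 (log2 difference 2.08, adjusted p 0.00165). At both, RA lay above and TSA below 1 on every array. Gata4 (0.18, adjusted p 0.847) and Sox17 (0.52, adjusted p 0.324) did not pass.

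Basement membrane and parietal endoderm genes went both ways: of 33 measured, 3 were higher with RA (9.09%) and 3 with TSA (9.09% against 2.79%), with a median of 0.00. Leaving out 1 array gave 1 to 4 and 1 to 5. The RA-higher genes serve collagen: Serpinh1, a collagen chaperone, read 2.38, 2.51 and 2.11 against 0.99, 0.898 and 0.733 (log2 difference 1.37, adjusted p 0.00492). Col4a1, a chain of basement membrane collagen, read 3.39, 2.6 and 2.09 against 0.889, 0.905 and 0.751 (log2 difference 1.59, adjusted p 0.0266, up to 0.0996 without RA 1/2, TSA 1/2/3, 0.109 after quantile normalisation). Plod3, which hydroxylates collagen lysines, was the third (0.81, adjusted p 0.0417, up to 0.137 without RA 1/2/3, TSA 1/2/3, vehicle 2, 0.157 after quantile normalisation). The laminin chains Lama1 (0.02), Lamb1 (-0.51) and Lamc1 (-0.10) did not pass, and the log2 differences in brackets were near 0 or negative. TSA was higher at Bmp4, a growth factor that shifts F9 cells between visceral and parietal fates, with 0.317, 0.34 and 0.337 for RA and 1.06, 0.975 and 0.749 for TSA (log2 difference -1.34, adjusted p 0.00715). The other TSA-higher genes were the keratin Krt19 (-1.34, adjusted p 0.026, up to 0.0956 without RA 2/3, TSA 1/2/3, 0.323 after quantile normalisation), whose probe sets read 0.00 and -2.68, and the laminin chain Lama5 (-0.94, adjusted p 0.0492, up to 0.171 without RA 1/2/3, TSA 1/2/3, vehicle 1/2).

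Genes of the undifferentiated state split. Of 36 measured, 6 were higher with TSA (16.7% against 2.79%) and 4 with RA (11.1%), with a median of -0.32; leaving out 1 array gave 4 to 7 and 2 to 5. Myc, a proliferation factor, read 0.206, 0.116 and 0.135 with RA and 0.833, 0.669 and 0.541 with TSA (log2 difference -1.86, adjusted p 0.00346). Zfp42 (Rex1), a marker of the undifferentiated state that RA switches off in F9 cells, read 0.291, 0.359 and 0.196 against 0.968, 0.853 and 0.883 (log2 difference -1.55, adjusted p 0.0057). Tcl1, a coactivator of Akt, read 0.292, 0.306 and 0.332 against 0.834, 0.683 and 0.937 (log2 difference -1.26, adjusted p 0.0105). Nr5a2, a nuclear receptor that activates Pou5f1, read 0.417, 0.415 and 0.529 against 1.28, 1.24 and 1.23 (log2 difference -1.37, adjusted p 0.00545). The RA arrays of these 4 genes were at most 0.529, and the TSA arrays lay nearer 1. The core factors did not separate: Pou5f1 read 0.593, 0.459 and 0.385 with RA and 0.337, 0.378 and 0.647 with TSA, a difference of 0.10 (95% interval -0.59 to 0.80). Nanog (-0.26, adjusted p 0.568) and Sox2 (-0.59, adjusted p 0.127) did not pass. Tbx3, counted in this list and known also in endoderm, went the other way, with 3.06, 3.15 and 2.49 for RA and 0.899, 0.547 and 1.03 for TSA (log2 difference 1.79, adjusted p 0.00492). Nodal and activin signalling had 2 of 25 genes higher with RA (8%; 1 to 3 with 1 array left out, median 0.51). Lefty1, a secreted Nodal antagonist, read 3.79, 3.05 and 4.65 against 0.206, 0.20 and 0.302 (log2 difference 3.76, adjusted p 0.000439), above vehicle with RA and well below it with TSA. The other was Pcsk6, a protease that matures Nodal (0.77, adjusted p 0.0491, up to 0.189 without RA 1/2/3, TSA 1/2/3, vehicle 1/2). Nodal itself (-0.60, adjusted p 0.37) and its coreceptor Tdgf1 (-0.84, adjusted p 0.186) did not pass.

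In cholesterol synthesis the difference lay on the TSA side of vehicle. Of 19 measured genes, 6 were higher with RA (31.6% against 2.21%) and 0 with TSA; 18 of 19 differences were positive, with a median of 0.66. At an unadjusted p under 0.05 in limma the counts were 12 and 0. The RA arrays averaged -0.02 to -0.24 on the log2 scale over the list and the TSA arrays -0.81 to -0.91, against -0.12 to 0.24 on the vehicle arrays. Against vehicle, TSA lowered 8 of the 19 genes and RA 1. Cyp51, which demethylates lanosterol, read 0.978, 0.903 and 0.864 with RA and 0.263, 0.123 and 0.212 with TSA (log2 difference 1.99, adjusted p 0.00389). Msmo1, the next oxidase of the pathway, read 0.912, 0.832 and 0.793 against 0.326, 0.198 and 0.257 (log2 difference 1.55, adjusted p 0.00661). Nsdhl, a sterol dehydrogenase, read 1.02, 0.954 and 0.878 against 0.412, 0.317 and 0.339 (log2 difference 1.31, adjusted p 0.0057). These 3 genes read 0.793 or more on every RA array and 0.412 or less on every TSA array. The others were Mvd (1.11, adjusted p 0.0123, up to 0.0581 without RA 1/2, TSA 1/2), Sqle (0.80, adjusted p 0.043, up to 0.159 without RA 1/2/3, TSA 1/2/3, vehicle 2) and Lss (1.32, adjusted p 0.0467, up to 0.171 without RA 1/2/3, TSA 1/2/3, vehicle 3, 0.228 after quantile normalisation). Leaving out RA array 1, RA array 2, TSA array 1 or TSA array 2 left 3. The sterol response core TCACNCCAC, searched on both strands, was in a window of 1 of 15 genes of the list that have one (6.67%) and of 1.64% of all 6576 genes with a window; the GC box GGGCGG was in 15 of 15, against 63% of all.

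Few fatty acid genes passed: of 30 measured, 1 was higher with RA (3.33% against 2.21%; 0 to 2 with 1 array left out) and 2 with TSA (6.67% against 2.79%; 1 to 3), with a median of 0.20. Fabp3, a fatty acid binding protein, read 0.609, 0.539 and 0.549 against 1.5, 1.89 and 2.09 (log2 difference -1.6, adjusted p 0.00542, 0.0564 after quantile normalisation). Slc27a2, an acyl-CoA synthetase and transporter, was also higher with TSA (-1.94, adjusted p 0.0382, up to 0.129 without RA 1/3, TSA 1/2/3, vehicle 2, 0.155 with a variance trend), and the desaturase Fads1 was higher with RA (1.07, adjusted p 0.0121, up to 0.0594 without RA 1, TSA 1/2). Fasn (1.01, adjusted p 0.0654) and Cpt1a (-1.35, adjusted p 0.0516) did not pass.

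Genes of the unfolded protein response were called in 1 direction: 4 of 39 were higher with RA (10.3%) and 0 with TSA, and 31 of 39 differences were positive with a median of 0.46. The counts at an unadjusted p under 0.05 in limma were 14 and 0. The list's mean on the log2 scale was 0.04 to 0.38 on the RA arrays and -0.18 to -0.28 on the TSA arrays. Fkbp9, a prolyl isomerase of the endoplasmic reticulum, read 0.883, 0.733 and 0.678 against 0.288, 0.161 and 0.232 (log2 difference 1.57, adjusted p 0.00551). The chaperone Hsp90b1 (0.87, adjusted p 0.033, up to 0.121 without RA 1/2/3, TSA 1/2/3, vehicle 2), the secreted factor Manf (0.99, adjusted p 0.037, up to 0.13 without RA 1/2/3, TSA 1/2/3, vehicle 2) and the transcription factor Xbp1 (1.12, adjusted p 0.0497, up to 0.155 without RA 1/2, TSA 1/2/3, vehicle 2, 0.157 after quantile normalisation) were closer to the threshold. Leaving out 1 array gave 1 to 5. Hspa5, the central chaperone of the reticulum, missed the threshold (log2 difference 0.89, adjusted p 0.0657), and the stress factor Ddit3 did not pass either (log2 difference -1.05, adjusted p 0.511).

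Glycolysis and hypoxia genes were likewise called in 1 direction: 5 of 35 were higher with RA (14.3%) and 0 with TSA, with a median of 0.28. At an unadjusted p under 0.05 in limma the counts were 11 and 1. Their mean was -0.14 to 0.12 on the RA arrays and -0.32 to -0.42 on the TSA arrays. Vegfa, the vascular growth factor, read 1.42, 2.07 and 1.49 with RA and 0.559, 0.522 and 0.441 with TSA (log2 difference 1.6, adjusted p 0.00737). Slc2a3, a glucose transporter, read 1.7, 1.62 and 1.4 against 0.756, 0.722 and 0.63 (log2 difference 1.11, adjusted p 0.00905). Both lay above 1 with RA and below 1 with TSA on every array. The remaining calls were Vegfc (1.89, adjusted p 0.0163, up to 0.0642 without RA 2/3, TSA 2), the oxygen sensor Egln1 (1.7, adjusted p 0.0233, up to 0.090 without RA 1/2, TSA 2) and Pck2 (1.12, adjusted p 0.0163, up to 0.0773 without RA 3, TSA 1/2). The count was 2 without TSA array 2 and 8 without vehicle array 3. Hk2 (0.41) and Slc2a1 (0.28) did not pass.

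On the TSA side, the list of deacetylase inhibitor responsive genes had 21 of 42 measured members higher with TSA (50% against 2.79% of all genes) and 1 higher with RA. Its median was -1.35, and its mean was 1.27 to 1.68 on the TSA arrays and -0.04 to 0.16 on the RA arrays. Beyond the limit stated for every list, part of this list was picked from earlier results of these data. The count is thus not independent evidence of its direction. Without TSA array 2 the count was 11. Tgfb1, a growth factor that restrains epithelial growth, read 0.259, 0.221 and 0.434 with RA and 7.19, 10.5 and 7.35 with TSA (log2 difference -4.59, adjusted p 0.000781). Clu, an extracellular chaperone, read 0.906, 1.21 and 1.14 against 8.96, 17.1 and 10.6 (log2 difference -3.39, adjusted p 0.000439). Ckb, brain creatine kinase, read 0.597, 0.447 and 0.63 against 1.79, 2.12 and 2.61 (log2 difference -1.87, adjusted p 0.00268). At Tgfb1 and Ckb the RA arrays lay below and the TSA arrays above vehicle. Gsn, an actin-severing protein and a classic response gene of deacetylase inhibitors, was above 1 with both drugs, 2.48, 2.84 and 2.35 with RA and 10, 13.9 and 9.76 with TSA (log2 difference -2.1, adjusted p 0.00797, 0.221 after quantile normalisation). The exception was Tgfbr2, the receptor of the growth factor just named, with 0.646, 0.981 and 1.92 for RA and 0.151, 0.169 and 0.30 for TSA (log2 difference 2.17, adjusted p 0.0163, up to 0.0733 without RA 2, TSA 1/2). Ligand and receptor thus differed in opposite directions.

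Of 9 CDK inhibitors, 3 were higher with TSA (33.3% against 2.79%) and 0 with RA; 1 remained past the threshold without TSA array 1 or without TSA array 2. Cdkn1c (p57), an imprinted inhibitor, read 1.28, 0.644 and 0.523 with RA and 17.3, 30.5 and 16.9 with TSA, a log2 difference of -4.68 (95% interval -5.76 to -3.6, adjusted p 0.00165). Cdkn2b (p15) read 2.15, 0.798 and 2.25 against 9.11, 11.1 and 6.33 (log2 difference -2.42, adjusted p 0.0129, up to 0.0601 without TSA 1/2, 0.0973 after quantile normalisation). Cdkn1a (p21), the best known target of deacetylase inhibitors, read 0.753, 0.74 and 0.629 against 2.79, 3.02 and 2.87 (log2 difference -1.96, adjusted p 0.019, up to 0.0781 without RA 1/2/3, TSA 1/2/3, 0.227 after quantile normalisation). The Cdkn1a ratios were even within each drug, but the call ended when any 1 treated array was left out. Cdkn1b (p27) did not pass (log2 difference 0.86, adjusted p 0.0915). The proximal promoter of Cdkn1a is shown because its GC boxes are the textbook elements of its response to deacetylase inhibitors; it was chosen after the values were seen. It lies at chr17:29093619-29093768 (GRCm38.p6, plus strand, RefSeq), upstream of the start, and capitals mark 2 GC boxes (GGGCGG, searched on both strands), between base -104 and base -41. The same box was in a window of 70.3% of the TSA-higher genes, 69.3% of the RA-higher genes and 63% of all genes with a window.
Cdkn1a: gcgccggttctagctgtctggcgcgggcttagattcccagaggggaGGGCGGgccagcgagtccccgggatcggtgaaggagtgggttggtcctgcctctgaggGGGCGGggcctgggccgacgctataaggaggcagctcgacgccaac

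Cell cycle and replication genes gave 0 calls in either direction among 60 measured, with a median of 0.35 and 49 positive differences. At an unadjusted p under 0.05 in the same limma fit, 17 were higher with RA and 1 with TSA.

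Of 15 linker and replacement histones, 2 were higher with TSA (13.3%; 1 or 2 with 1 array left out). H1f2, a linker histone, read 1.63, 1.0 and 1.32 against 20.2, 22.4 and 11.6 (log2 difference -3.7, adjusted p 0.000439). H1f10 passed narrowly (-1.05, adjusted p 0.0344, up to 0.134 without RA 1/2/3, TSA 1/2/3, vehicle 2, 0.228 after quantile normalisation).

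Heat shock and chaperone genes had 3 of 33 higher with TSA (9.09%; 1 to 3 with 1 array left out) and a median of -0.14. Hspa1b, an inducible cytosolic Hsp70, read 1.69, 0.965 and 0.859 with RA and 6.3, 9.97 and 6.57 with TSA (log2 difference -2.68, adjusted p 0.00327). Hspa1a, its near-identical copy, read 1.68, 0.749 and 1.0 against 3.31, 7.47 and 3.53 (log2 difference -1.99, adjusted p 0.0337, up to 0.113 without RA 2/3, TSA 1/2/3, vehicle 2, 0.188 after quantile normalisation). Probe sets of these copies may read each other's RNA, so they are uncertain as separate genes. The testis form Hspa2 was the third (-2.45, adjusted p 0.0468, up to 0.159 without RA 2/3, TSA 2/3, vehicle 1/2/3), and the small heat shock gene Hspb1 did not pass (log2 difference -0.41, adjusted p 0.869). The Hspa1b promoter is shown, a choice made after its values were seen, at chr17:34959239-34959388 (GRCm38.p6, minus strand, RefSeq), upstream of the start. Capitals mark a heat shock unit (GAANNTTC, the same on both strands) at bases -104 to -97, and Hspa1a holds one at the same place. The unit was in a window of 13 of 27 heat shock list genes (48.1%), against 7.25% of all genes with a window.
Hspa1b: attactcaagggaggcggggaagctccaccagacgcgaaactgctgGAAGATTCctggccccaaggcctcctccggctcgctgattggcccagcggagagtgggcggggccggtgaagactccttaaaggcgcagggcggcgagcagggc

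Of 40 metallothionein and antioxidant genes, 7 were higher with TSA (17.5% against 2.79%) and 0 with RA, with a median of -0.18. Their mean was near 0.11 on all 3 TSA arrays and -0.13 to -0.34 on the RA arrays, on opposite sides of 0. Mt1, a metal-binding metallothionein, read 0.322, 0.234 and 0.332 with RA and 2.85, 3.1 and 3.42 with TSA (log2 difference -3.21, adjusted p 0.00346, 0.0608 after quantile normalisation). Mt2 differed the same way (-1.48, adjusted p 0.0203, up to 0.0774 without RA 1/2/3, TSA 1/2/3, 0.128 after quantile normalisation), as did Mt4, a form of stratified epithelium added after its values were seen (-2.78, adjusted p 0.0019). Nqo1, a quinone reductase, read 0.877, 0.74 and 0.791 against 2.68, 2.79 and 2.32 (log2 difference -1.63, adjusted p 0.00165). The 3 metallothioneins and Nqo1 read below 1 on every RA array and above 1 on every TSA array. Gsto1 (-1.89, adjusted p 0.0108, up to 0.0534 without TSA 2, 0.0746 after quantile normalisation), Gclc, which starts glutathione synthesis (-1.64, adjusted p 0.0156, up to 0.0689 without RA 2/3, TSA 1/2, 0.0749 after quantile normalisation), and Txnip (-1.04, adjusted p 0.014, up to 0.0692 without RA 1/2, TSA 2/3, 0.109 after quantile normalisation) also passed. The Txnip probe sets differed, at -2.05 and -0.03. Without TSA array 2 the count of the list was 2. Hmox1, another gene of the same response, did not pass (log2 difference -0.22, adjusted p 0.574).

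Of 26 p53 targets, 4 were higher with TSA (15.4%) and 1 with RA (3.85%), with a median of -0.21; leaving out 1 array gave 1 to 4 TSA-higher genes. Btg2, an antiproliferative gene, read 0.712, 0.507 and 0.567 against 1.43, 1.54 and 1.43 (log2 difference -1.24, adjusted p 0.00575). Cdkn1a is counted here too, together with the desmosomal apoptosis gene Perp (-1.39, adjusted p 0.0204, up to 0.0893 without RA 2/3, TSA 1/2, 0.113 after quantile normalisation) and Phlda3 (-1.34, adjusted p 0.0194, up to 0.0829 without RA 2, TSA 1/2/3, 0.0895 after quantile normalisation). Sesn1 was the RA-higher member (1.02, adjusted p 0.0185, up to 0.0742 without RA 1/3, TSA 1/2/3). Mdm2, the p53 ligase and target, did not pass (log2 difference -0.95, adjusted p 0.10).

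BMP and TGF-beta signalling had 5 of 42 genes higher with TSA (11.9%) and 2 with RA (4.76%), with a median of 0.09; leaving out 1 array gave 5 or 6 TSA-higher genes. Besides Tgfb1 and Bmp4, these were Id genes, inhibitors of bHLH factors and direct BMP targets. Id4 read 0.68, 0.652 and 0.49 with RA and 2.22, 4.13 and 3.08 with TSA (log2 difference -2.25, adjusted p 0.00204). Id3 read 1.28, 0.713 and 1.05 against 3.4, 5.0 and 4.66 (log2 difference -2.07, adjusted p 0.00284). Id1 read 0.992, 0.642 and 0.867 against 2.25, 2.4 and 2.77 (log2 difference -1.53, adjusted p 0.00407). All TSA arrays of the 3 genes were above 2, and the RA arrays lay near or below 1. Among 25 Fgf signalling genes 2 were higher with TSA (8%; 0 to 2 with 1 array left out), Fgf17 (-1.78, adjusted p 0.0166, up to 0.0665 without RA 1/2/3, TSA 1/2/3, 0.227 after quantile normalisation) and the coreceptor Sdc1 (-0.91, adjusted p 0.0277, up to 0.114 without RA 1/2/3, TSA 1/2/3, vehicle 2, 0.849 with the lowest probe sets left out), and Fgf4 had a difference of 0.00. The Sdc1 probe sets differed, at -0.11 and -1.72. Of 44 Wnt genes 1 was higher with TSA (2.27%, near the background): Wnt6, a ligand, with 0.462, 0.539 and 0.544 for RA and 2.53, 2.53 and 1.94 for TSA (log2 difference -2.07, adjusted p 0.00165).

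In the lists of other tissues most calls were TSA-higher, and some genes stand in more than 1 list. Trophoblast genes had 6 of 36 higher with TSA (16.7%; 3 to 7 with 1 array left out) and 1 with RA. Tfap2c, an AP-2 factor of trophectoderm, read 1.63, 1.55 and 0.739 against 9.61, 7.75 and 9.63 (log2 difference -2.81, adjusted p 0.00905, 0.195 after quantile normalisation). Esx1, a placental homeobox gene, read 1.3, 1.18 and 1.01 against 3.63, 5.39 and 5.22 (log2 difference -1.97, adjusted p 0.00414). These 2 regulators were above 3 on all TSA arrays. Phlda2 (-1.95, adjusted p 0.0143, up to 0.0599 without RA 1/2, TSA 1/2, 0.159 after quantile normalisation) and Plac8 (-1.56, adjusted p 0.0134, up to 0.0608 without RA 1/2, TSA 2/3) also passed. The RA-higher member was Cited2 (1.04, adjusted p 0.0311, up to 0.109 without RA 1/2/3, TSA 1/2/3, vehicle 2). The trophoblast regulator Eomes, with probe sets at 0.61 and 0.64, passed on neither in limma (adjusted p 0.331 and 0.25). Imprinted genes had 4 of 36 higher with TSA (11.1%; 1 to 5 with 1 array left out) and 0 with RA, among them Cdkn1c and Phlda2, Calcr (-2.66, adjusted p 0.0226, up to 0.0898 without RA 1/2, TSA 1/2/3) and Magel2 (-2.26, adjusted p 0.0293, up to 0.108 without RA 1/3, TSA 1/2/3). Igf2 did not pass (log2 difference -1.41, adjusted p 0.105). Germline genes had 5 of 37 higher with TSA (13.5%; 3 to 6) and 1, Stra8, with RA. Tex19.1, which guards germ cells and placenta against retrotransposons, read 0.911, 0.932 and 0.791 against 6.26, 11.9 and 8.69 (log2 difference -3.23, adjusted p 0.00036). Zp3, an egg coat protein, read 0.779, 0.871 and 0.634 against 3.43, 2.87 and 2.56 (log2 difference -1.89, adjusted p 0.0102, 0.0665 after quantile normalisation). With Stag3 and Tsx (-2.25, adjusted p 0.0136, up to 0.0599 without RA 1/2, TSA 2, 0.169 after quantile normalisation), the TSA-higher members serve oocyte, meiosis and testis. The defining germ cell genes Dazl (log2 difference -1.15, adjusted p 0.0752) and Ddx4 (log2 difference -0.43, adjusted p 0.241) did not pass.

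Neural genes had 7 of 61 higher with TSA (11.5%; 4 to 9 with 1 array left out) and 1 with RA. Nefh, the heavy neurofilament, read 0.834, 0.867 and 0.529 against 2.9, 4.46 and 2.67 (log2 difference -2.09, adjusted p 0.00346). Mapt (tau) read 0.925, 1.05 and 1.26 against 3.16, 5.99 and 4.16 (log2 difference -1.96, adjusted p 0.00413), from probe sets at -3.77, -1.55 and -0.55. Cntn1, an axonal adhesion protein, read 0.946, 0.978 and 0.764 against 4.31, 2.71 and 2.73 (log2 difference -1.78, adjusted p 0.00351). At all 3 genes the TSA arrays were above 2 and the RA arrays near or below 1. Nefl (-1.55, adjusted p 0.0188, up to 0.0808 without RA 1/3, TSA 1/2/3), the RNA-binding protein Elavl3 (-2.63, adjusted p 0.0185, up to 0.0795 without RA 1/2/3, TSA 2/3, 0.114 after quantile normalisation) and Tubb3 (-0.96, adjusted p 0.0204, up to 0.0914 without RA 2/3, TSA 1/2/3) passed with all arrays in, while the synaptic gene Syt1 did not (log2 difference -0.26, adjusted p 0.653). The Tubb3 probe sets differed, at -0.25 and -1.66. Fibroblast, muscle and feeder cell genes had 6 of 46 higher with TSA (13%) and 1 with RA (2.17%). The TSA-higher count was 2 without TSA array 2 or TSA array 3. Differences of the list's genes ran from -4.35 at Thy1, given above, to 1.03 at Postn. The list mean was 0.27 to 0.37 on TSA arrays, -0.14 to -0.02 on RA arrays and -0.25 to 0.24 on vehicle arrays. The part of such cells in the difference was not tested. Col1a1, fibrillar collagen, read 0.463, 0.521 and 1.28 against 4.19, 6.68 and 5.36 (log2 difference -2.88, adjusted p 0.0060), from probe sets at -4.81 and -0.94. Its partner chains Col1a2 (log2 difference -0.18, adjusted p 0.815) and Col3a1 (log2 difference 0.37, adjusted p 0.733) did not pass. Ccn2 (-2.04, adjusted p 0.026, up to 0.103 without RA 2/3, TSA 1/2/3, 0.324 after quantile normalisation), elastin Eln (-1.8, adjusted p 0.0261, up to 0.0983 without RA 2/3, TSA 1/2/3, 0.212 after quantile normalisation) and the calponins Cnn1 (-1.98, adjusted p 0.0258, up to 0.092 without RA 1/2, TSA 2/3, 0.121 after quantile normalisation) and Cnn2 (-1.56, adjusted p 0.0204, up to 0.0888 without RA 1/3, TSA 1/2/3, 0.154 after quantile normalisation) passed with all arrays in. Liver, gut and secretory genes had 3 of 46 higher with TSA (6.52%; 3 or 4), of which Vil1, the villin of microvilli, read 0.403, 0.466 and 0.381 against 2.56, 2.81 and 3.91 (log2 difference -2.73, adjusted p 0.00165) and Cd24a read 1.0, 0.707 and 0.917 against 3.17, 3.82 and 3.93 (log2 difference -2.0, adjusted p 0.00961, 0.188 after quantile normalisation). Blood cell genes were at the background, with 1 of 36 higher with TSA (2.78% against 2.79%), Laptm5 (-0.73, adjusted p 0.0308, up to 0.124 without RA 1/2/3, TSA 1/2/3, vehicle 2); the leukocyte marker Ptprc (log2 difference 0.31, adjusted p 0.725) and Hba-a1 (log2 difference -1.77, adjusted p 0.0738) did not pass.

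Actin, calcium-binding and cytoskeletal regulators had 9 of 54 higher with TSA (16.7% against 2.79%; 5 to 11 with 1 array left out) and 2 with RA (3.7%). Csrp1, a LIM protein of actin bundles, read 1.69, 1.73 and 1.32 with RA and 6.38, 11.2 and 6.52 with TSA (log2 difference -2.27, adjusted p 0.00281). Lgals3, a galectin grouped here for its cytoskeletal and adhesion roles, read 0.361, 0.304 and 0.352 against 1.54, 1.8 and 1.91 (log2 difference -2.21, adjusted p 0.00285). S100a6 and Gsn, given above, and the annexin Anxa2 (-1.09, adjusted p 0.0146, up to 0.0615 without RA 2, TSA 1/2/3) belong here too.

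Interferon response and MHC genes had 4 of 46 higher with TSA (8.7%) and 0 with RA, with a median of -0.31. Their mean was 0.30 to 0.67 on the TSA arrays and -0.17 to 0.14 on the RA arrays. Psmb9, an interferon-inducible proteasome subunit, read 0.932, 0.944 and 1.13 with RA and 10.3, 15.3 and 12.5 with TSA (log2 difference -3.58, adjusted p 0.000153), and was also the 1 called gene of 44 proteasome genes (2.27%). Usp18, which removes ISG15 and restrains interferon signalling, read 0.676, 0.829 and 0.737 against 3.67, 17 and 27.9 (log2 difference -3.93, adjusted p 0.0156, up to 0.0707 without RA 1/2, TSA 2), with TSA array 1 the lowest of its group. Cd74 (-1.35, adjusted p 0.0188, up to 0.0829 without RA 1/2/3, TSA 2/3, 0.133 after quantile normalisation) and the GTPase Gbp2 (-2.26, adjusted p 0.043, up to 0.156 without RA 1/2/3, TSA 1/2/3, vehicle 2) were less stable. Without RA array 1 or TSA array 2 a single gene passed. The MHC genes B2m (log2 difference -0.63, adjusted p 0.525) and H2-K1 (log2 difference -0.45, adjusted p 0.31) did not pass. The H2-K1 probe sets differed, at -0.94, -0.76 and 0.36, and the first passed in limma (adjusted p 0.0465).

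Calls in the lists of chromatin genes were few in number. Of 36 deacetylases, acetyltransferases and corepressors, 3 were higher with RA (8.33% against 2.21% of all genes) and 1 with TSA (2.78% against 2.79%). Leaving out 1 array gave 0 to 3 RA-higher genes. Ctbp2, a corepressor that recruits deacetylases, read 0.327, 0.336 and 0.181 with RA and 1.34, 1.2 and 1.02 with TSA (log2 difference -1.93, adjusted p 0.00541). Its paralogue Ctbp1 differed the other way (1.09, adjusted p 0.0386, up to 0.15 without RA 1/2/3, TSA 1/2/3, vehicle 2), as did Mbd3, a subunit of the NuRD deacetylase complex (1.05, adjusted p 0.0194, up to 0.0834 without RA 2/3, TSA 1/2). The deacetylases Hdac1 (-0.44, adjusted p 0.255), Hdac2 (-0.07, adjusted p 0.906) and Hdac3 (-0.46, adjusted p 0.366), which TSA blocks as enzymes, did not pass. DNA methylation and Polycomb genes had 1 of 28 higher with TSA (3.57%), Jarid2, a subunit of Polycomb complex 2 (-0.92, adjusted p 0.0204, up to 0.0808 without RA 1/2, TSA 1/2/3). Dnmt1 did not pass (log2 difference -0.05, adjusted p 0.939). SWI/SNF subunits had 0 of 15 in limma, with 3 higher with RA and 1 with TSA at an unadjusted p under 0.05. Smarca2, one of its ATPases, read 2.86, 2.71 and 3.19 with RA and 10.3, 14.9 and 11.5 with TSA, high with both drugs and not past the test (log2 difference -2.03, adjusted p 0.164).

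Several lists stayed at, near or below the background. Integrins and cadherins had 1 of 46 higher with RA (2.17%), guidance genes 2 of 43 (4.65%), oxidative phosphorylation 1 of 71 (1.41%), and apoptosis 1 of 38 higher with TSA (2.63%). No member passed among 34 cytosolic and 60 mitochondrial ribosomal proteins, 49 translation factors, 21 tRNA synthetases and 18 housekeeping genes, whose medians lay between -0.12 and 0.18. Summed over these 5 lists, 7 of 182 members were higher with RA and 8 with TSA at an unadjusted p under 0.05 in limma. Both are smaller shares than the 783 and 819 of all 8251 genes. Of the RA-higher members here, the muscle subunit Cox6a2 (1.28, adjusted p 0.0202, up to 0.084 without RA 1/2, TSA 1/2) and the desmosomal cadherin Dsc2 (1.91, adjusted p 0.0391, up to 0.118 without RA 1/2/3, TSA 1/2/3, vehicle 2, 0.303 after quantile normalisation) did not hold without some arrays.

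**Figure D4:**
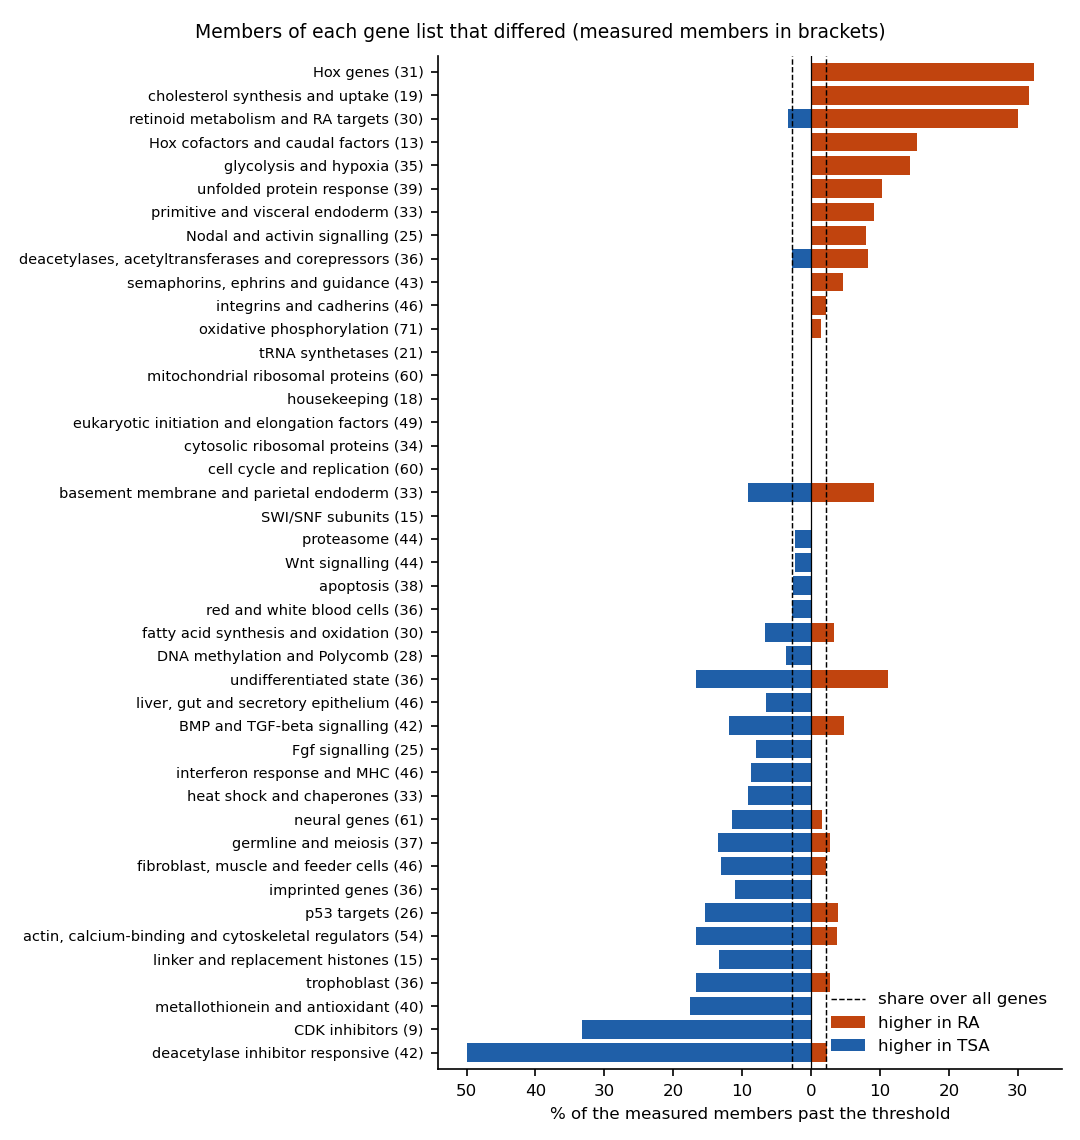
Share of the measured members of each gene list that differed, with the number measured in brackets: orange bars to the right for genes higher with RA, blue bars to the left for genes higher with TSA. Dashed lines mark the share over all genes, 2.21% for RA and 2.79% for TSA; the Hox, cholesterol and retinoid lists reach 30% or more on the right and the deacetylase inhibitor list reaches 50% on the left.

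**Figure D5:**
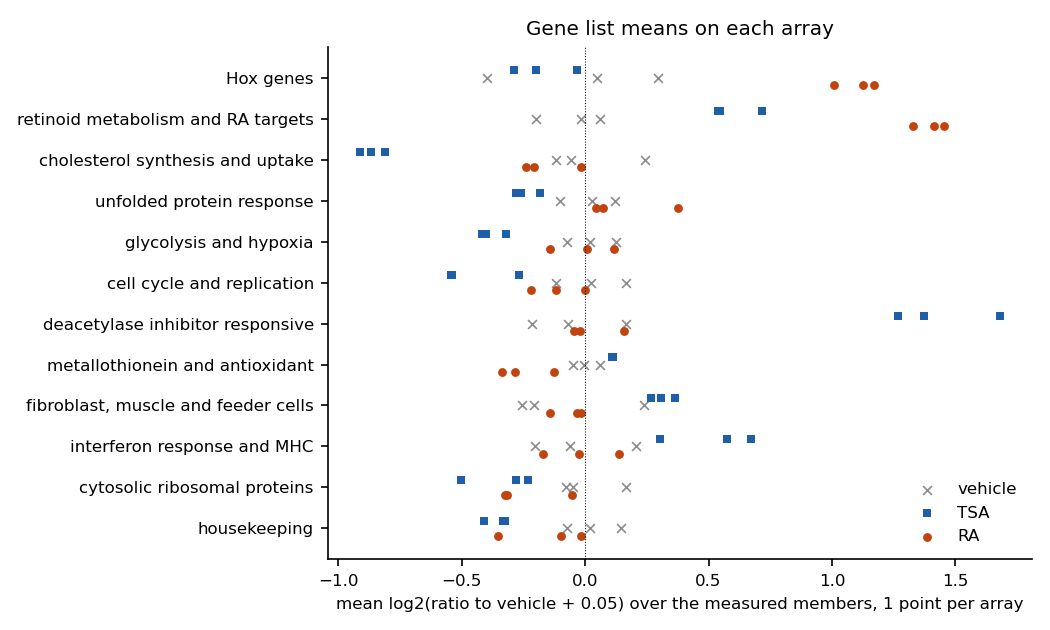
Mean log2(ratio to vehicle + 0.05) over the measured members of 12 gene lists, 1 point per array. RA stands to the right for the Hox and retinoid lists, TSA stands to the left for the cholesterol list (-0.81 to -0.91) and to the right for the deacetylase inhibitor list, and for the ribosomal list the drugs' arrays overlap.

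Arrays also differed within the groups. Median ratios of the 9 arrays spanned 0.821 to 1.02. The 18S control probe sets had medians of 0.961 on RA array 3 and 0.538 and 2.4 on vehicle arrays 1 and 3, against at most 0.073 on the other 6 arrays. Hybridisation spike-in controls were 0.412 to 1.10 on the RA arrays and 0.557 to 0.717 on the TSA arrays. The median SD of a probe set's log2 value was 0.413 among vehicle, 0.311 among RA and 0.260 among TSA arrays. Without RA array 3 and vehicle array 3 together, 373 genes passed.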

How the data were processed

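RNA of F9 cells was hybridised to Affymetrix mouse arrays, 3 per group. The deposited values are ratios per probe set in which the 3 vehicle arrays average 1 (largest deviation 1.9e-07); GeneSpring is named per the labels, and no source used here gives the authors' steps from scan to ratio. Ratios were turned into log2(ratio + 0.05) values. A gene's value is the mean of its probe sets with 1 symbol in the platform annotation, updated through RefSeq (GRCm38.p6); 396 probe sets with several symbols and 1193 with none count only at the probe set level. limma 3.58.1 (R 4.3.3) fitted all 9 arrays (6 residual degrees of freedom), and the RA minus TSA contrast was adjusted over all probe sets or genes by Benjamini-Hochberg at 0.05. The procedure was tested on simulated data. Whether replicate numbers pair arrays is not known. Deviations of same-numbered RA and TSA arrays correlated at 0.016, -0.032 and 0.19, and other pairs were not compared. Genes drawn for naming were the 15 largest called differences each way. Added to these were up to 6 called members of each of 43 lists and each list's first 3. Not every gene drawn is printed, and some members that did not pass are left out. Other named genes are said to be chosen after seeing values. The members and lists were chosen with earlier results of these data known. Alternatives were other pseudocounts, scalings, variance models, filters, probe set rules, a replicate block and arrays left out. The number of arrays limits the precision. Figures were drawn with matplotlib 3.10.9.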

Additional observations from a re-analysis of the deposited data

How the results depend on the processing

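All 412 gene calls kept their direction under every alternative in which they were tested. The RA and TSA arrays of these genes do not overlap. That largely fixes the direction when arrays are left out or the pseudocount or variance model changes. Quantile normalisation left 152 probe sets and 158 genes, against 486 and 412. Array weights gave 943 and 739, from a fit that stopped before its tolerance was met. An adjusted p under 0.01 left 125 and 132. Leaving out 1 array gave 167 to 624 probe sets and 155 to 545 genes, lowest without TSA array 2 and highest without vehicle array 3. Other pseudocounts, centred arrays, a variance trend, the 6 treated arrays alone and the other rules for probe sets stayed within 1.5 times the counts. Leaving out the lowest 30% by mean log2 value gave 493 and 431, but since vehicle averages 1 for every probe set, this removes low or variable ratios and not dim probe sets. The replicate block gave 455 probe sets and 439 genes, of which 359 were among the 412. Whether the replicate numbers pair the arrays is not known. Counts within gene lists moved more, with 1 array often deciding calls near the threshold. Brightness above background is not known here, so weak and strong probe sets cannot be told apart.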

Other observations

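Some genes outside the lists were singled out after their values were seen. They are given as values of single genes, with no statement on a pathway. Of 5 measured Fxyd genes, which encode small regulators of the sodium pump, 3 were higher with TSA: Fxyd3 (0.592, 0.568 and 0.879 with RA, 4.08, 6.41 and 3.54 with TSA; log2 difference -2.67, adjusted p 0.00346), Fxyd5 (0.82, 0.849 and 1.37 with RA against 5.01, 5.58 and 7.47; log2 difference -2.53, adjusted p 0.00413) and Fxyd2 (log2 difference -2.71, adjusted p 0.0215, up to 0.0885 without RA 1/2, TSA 1/2/3). Fxyd1 (log2 difference 0.13, adjusted p 0.786) and Fxyd7 (log2 difference -1.44, adjusted p 0.17) did not pass. Of 4 measured plakophilin genes, which encode plaque proteins of desmosomes, Pkp2 (0.637, 0.63 and 0.779 with RA against 2.85, 3.52 and 2.49; log2 difference -2.03, adjusted p 0.00165) and Pkp3 (log2 difference -2.09, adjusted p 0.00797, 0.0828 after quantile normalisation) were higher with TSA. Pkp1 (log2 difference 0.09, adjusted p 0.892) and Pkp4 (log2 difference -0.13, adjusted p 0.875) did not pass.

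The calcium-binding proteins Calb1 (0.505, 0.522 and 0.69 with RA against 3.74, 4.41 and 5.27; log2 difference -2.86, adjusted p 0.00289) and Calb2 (0.373, 0.431 and 0.246 with RA against 3.1, 3.44 and 2.68; log2 difference -2.99, adjusted p 0.00265, 0.0562 after quantile normalisation) were below vehicle with RA and above it with TSA on every array. Vsnl1 (log2 difference -2.49, adjusted p 0.0226, up to 0.0878 without RA 1/3, TSA 1/3) and Hpca (log2 difference -1.39, adjusted p 0.0263, up to 0.0893 without RA 2/3, TSA 1/2, 0.094 after quantile normalisation), of the neuronal calcium sensors, were higher with TSA, while their relatives Hpcal1 (log2 difference 0.23, adjusted p 0.652) and Hpcal4 (log2 difference 0.10, adjusted p 0.838) did not pass. Icam1, an adhesion receptor of leukocytes, read 0.485, 0.908 and 0.619 with RA against 3.45, 6.78 and 4.25 (log2 difference -2.74, adjusted p 0.00265), and the chemokine Cxcl10 was higher with TSA (log2 difference -2.21, adjusted p 0.0363, up to 0.125 without RA 1/2/3, TSA 1/2/3, 0.264 after quantile normalisation). Smo, the hedgehog signal transducer, read 1.19, 1.11 and 0.922 with RA against 0.35, 0.204 and 0.309 (log2 difference 1.75, adjusted p 0.00545). The hedgehog coreceptor Gas1 was higher with RA (log2 difference 1.71, adjusted p 0.0191, up to 0.0693 without RA 1/2/3, TSA 1/2) and the hedgehog target Gli1 with TSA (log2 difference -2.18, adjusted p 0.0498, up to 0.169 without RA 1/3, TSA 1/2/3, vehicle 2, 0.307 after quantile normalisation). Rcn1, a calcium binder of the endoplasmic reticulum, read 1.45, 1.08 and 1.2 with RA against 0.556, 0.473 and 0.517 (log2 difference 1.18, adjusted p 0.0071). Also higher with RA were Man1a (log2 difference 2.26, adjusted p 0.0135, up to 0.0539 without TSA 1), Man2a1 (log2 difference 1.26, adjusted p 0.0226, up to 0.0815 without RA 1/3, TSA 1/2/3, 0.0872 after quantile normalisation), Ssr3 (log2 difference 1.05, adjusted p 0.0175, up to 0.0698 without RA 1/2, TSA 2/3), Kdelr1 (log2 difference 0.81, adjusted p 0.0452, up to 0.156 without RA 1/2/3, TSA 1/2/3, vehicle 2), Galnt2 (log2 difference 0.71, adjusted p 0.0444, up to 0.166 without RA 1/2/3, TSA 1/2/3, vehicle 2) and Golm1 (log2 difference 0.74, adjusted p 0.0344, up to 0.138 without RA 1/2/3, TSA 1/2/3, vehicle 2).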
